A study of Mus musculus with 24 samples.

Results

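Expression of 8 genes of cholesterol and fatty acid synthesis was followed in mouse lung. The genes were taken by name from the deposited table, and all 8 were found among its 23891 genes and passed the filter of a mean of at least 1 CPM (a read count scaled to a fixed library total), which left 17744 genes for testing. RNA from the left lung lobe of C57BL/6 mice was sequenced in 24 samples of 4 groups. These were saline mice of 20 wk (saline adult, n = 5), saline mice of 80 wk (saline aged, n = 5), mice of 80 wk given house-dust mite extract (HDM, n = 7) and mice of 80 wk given HDM and dexamethasone (HDM + Dex, n = 7). HDM was instilled into the nose at 50 μg a dose, in 3 sensitizing and 9 challenge doses, Dex was injected into the abdomen at 4 mg/kg every 72 h through the challenge period, and lungs were taken 24 h after the last HDM. The labels do not say that each sample is a separate mouse, and the methods state a smaller n than the 7 samples that the labels give to HDM and to HDM + Dex. The p-values therefore measure the spread between these samples, which may be technical in part. There was no adult group with HDM or Dex, so the HDM and Dex comparisons concern aged lungs.

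Cholesterol is built from acetyl-CoA by way of mevalonate and squalene, and fatty acids are built from acetyl-CoA and malonyl-CoA. Both pathways are driven by the sterol regulatory element-binding proteins (SREBPs), membrane-bound transcription factors that are held in the endoplasmic reticulum by INSIG proteins when sterols are plentiful and released to the nucleus when sterols run low. SREBP2 acts mainly on cholesterol genes, and SREBP1 mainly on fatty acid genes. In the lung, type 2 alveolar cells are known for high fatty acid synthesis, since they make the lipid of surfactant, and alveolar macrophages take up and break down that lipid.

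Following the pathway, Hmgcs1 (HMG-CoA synthase, which makes the precursor of mevalonate) lies at chr13:119690379-119708260 on the plus strand of GRCm38. Idi1 (isopentenyl-diphosphate isomerase) lies at chr13:8885501-8892451 on the plus strand. Fdft1 (squalene synthase) lies at chr14:63145150-63179578 on the minus strand, and Sqle (squalene epoxidase) at chr15:59315077-59331192 on the plus strand. Insig1, which holds SREBPs back and is itself an SREBP target, lies at chr5:28071363-28078662 on the plus strand. Srebf1, the gene of SREBP1, lies at chr11:60199089-60222581 on the minus strand. Fasn (fatty acid synthase) lies at chr11:120805846-120824547 and Scd1 (stearoyl-CoA desaturase, which puts the double bond into stearic acid) at chr19:44394455-44407879, both on the minus strand. These are whole genes, so the values below count reads over all their exons.

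The RefSeq promoter table (GRCm38.p6) held entries for 5 of the 8 genes, which were Hmgcs1, Idi1, Insig1, Srebf1 and Fasn. The 250 bases before the RefSeq start are printed for Insig1, the gene whose level differed between groups, and for Hmgcs1 and Idi1, whose levels varied together between samples. Capitals mark matches on either strand to TCACNCCAC, a form of the sterol regulatory element to which SREBPs bind, and to CCAAT, the box of the factor NF-Y, which reads ATTGG when it lies on the other strand. The windows were chr13:119690101-119690350 for Hmgcs1, chr13:8885356-8885605 for Idi1 and chr5:28071162-28071411 for Insig1, all on the plus strand.
Hmgcs1: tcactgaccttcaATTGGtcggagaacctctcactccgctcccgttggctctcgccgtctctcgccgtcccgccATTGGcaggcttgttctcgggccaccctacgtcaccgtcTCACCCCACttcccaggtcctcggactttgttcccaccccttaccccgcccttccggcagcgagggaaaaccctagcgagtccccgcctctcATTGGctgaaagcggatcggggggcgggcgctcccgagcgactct
Idi1: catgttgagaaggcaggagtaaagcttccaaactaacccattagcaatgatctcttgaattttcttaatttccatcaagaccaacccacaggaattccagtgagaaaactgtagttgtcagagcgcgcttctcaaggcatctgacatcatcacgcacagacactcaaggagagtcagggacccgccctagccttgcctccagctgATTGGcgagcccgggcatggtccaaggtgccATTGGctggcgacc
Insig1: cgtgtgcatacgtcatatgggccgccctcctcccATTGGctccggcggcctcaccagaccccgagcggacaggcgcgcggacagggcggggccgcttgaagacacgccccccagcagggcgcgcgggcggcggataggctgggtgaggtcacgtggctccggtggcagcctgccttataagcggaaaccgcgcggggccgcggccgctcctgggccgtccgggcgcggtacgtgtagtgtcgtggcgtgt
The window of Hmgcs1 held 1 match to TCACNCCAC, whose first base lay 137 bases before the start, and 3 CCAAT boxes. Windows of Idi1 and Insig1 held no TCACNCCAC and held 2 and 1 CCAAT boxes. Of all 32851 promoters in the table, 1.05% held TCACNCCAC and 33.8% held CCAAT in a window of the same length. A match is a run of letters and not a shown binding site, and a missing match says only that these letters were not in the window.

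Levels of different genes were compared per kb of exon. Scd1 was the highest by far, at 326.7 ± 108 CPM per kb (SD, n = 24), followed by Fasn at 38.4 ± 11.8 CPM per kb. Scd1 ranked 25 and Fasn ranked 151 among the genes tested by mean CPM. The 6 other genes lay between 3.67 and 11.4 CPM per kb. Their order over all samples was Hmgcs1 (11.4 ± 3.05), Insig1 (10.6 ± 3.44), Srebf1 (8.28 ± 2.45), Idi1 (7.93 ± 2.16), Fdft1 (5.87 ± 1.40) and Sqle (3.67 ± 0.768 CPM per kb). From Hmgcs1 to Fdft1, neighbours in this order differed by less than the larger of their SDs, whereas Fdft1 and Sqle differed by more. The order of such neighbours changed between groups, with Insig1 above Hmgcs1 in saline adult (11.1 and 10.6 CPM per kb) and saline aged samples (14.7 and 14.2), and Idi1 above Srebf1 in HDM + Dex samples (7.48 and 6.89). The tissue label was checked with surfactant and other type 2 alveolar cell markers, 10 of 10 of which were tested and whose summed level was 3529 to 15076 CPM per sample.

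The libraries differed in a way that touched all 8 genes. The estimated depth was 10029422 to 33050048 reads, and 3 reads corresponded to 0.0908 to 0.299 CPM. Both genes of 7SL RNA, which serves in protein targeting to the endoplasmic reticulum, took 9.92% to 42.0% of all reads. Their share was 9.92% to 18.1% in saline aged, 14.96% to 34.0% in HDM, 11.3% to 31.6% in HDM + Dex and 13.6% to 42.0% in saline adult samples. A CPM value is a share of all reads, so the other genes read lower where 7SL RNA read higher. The median gene differed by -0.23 (log2) in HDM vs saline, by -0.19 in HDM + Dex vs saline, by 0.033 in HDM + Dex vs HDM and by 0.19 in aged vs adult. The values of the 8 genes are therefore given as deposited and after median-of-ratios rescaling, which sets every library by its typical gene and brought these medians to between -0.011 and 0.0042. Xist was above Ddx3y in 5 of 5 saline adult, 2 of 5 saline aged, 2 of 7 HDM and 4 of 7 HDM + Dex samples, so the sexes were unevenly spread over the groups. In HDM, the 2 Xist-high samples were also the 2 with a 7SL share under 25%.

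The first comparison asked what repeated HDM did to the aged lung, HDM vs saline aged. Insig1 was lower with HDM, and it was the only 1 of the 8 genes that passed the test (adjusted p under 0.05 in limma over all 17744 genes), where 25.3% of all genes passed and 21.2% passed as lower. All 8 genes had a negative log2 fold change, with a median of -0.37 beside -0.23 for all genes, and 4 of them had an unadjusted p under 0.05. Over all genes, 73.4% of the log2 fold changes were negative and 6954 had an unadjusted p under 0.05. After rescaling, Insig1 alone passed again, where 22.5% of genes did, and the median of the 8 was -0.12.

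Insig1 read 32.4, 36.1, 46.5, 52.5 and 60.4 CPM in saline aged samples, and 20.0 (lowest), 27.7 (median) and 32.4 CPM (highest) in HDM samples. Every HDM sample was below every saline aged sample, though the closest pair differed only in the second decimal, and 7.69% of all genes tested were separated in this way. The mean fell from 45.6 ± 11.5 (SD, n = 5) to 27.0 ± 4.67 CPM (n = 7). The log2 fold change was -0.72 with a 95% interval of -1.11 to -0.32 (SE 0.19, adjusted p = 0.0104). After rescaling it was -0.47, from -0.76 to -0.18 (adjusted p = 0.0207), the groups overlapped, and 5 of 7 HDM samples remained below every saline aged sample. Insig1 passed when any 1 of the 19 aged samples was left out, with adjusted p from 0.00473 to 0.0427. It did not pass with the 7SL share as a covariate (-0.22, adjusted p = 0.409) or in the samples with a 7SL share under 25% (-0.50, adjusted p = 0.267), where the mean was 31.2 CPM in 2 HDM and 45.6 CPM in 5 saline aged samples. No saline aged sample had a share over 25%, and both HDM samples under it were Xist-high. HDM, the 7SL share and sex could therefore not be well separated by these 2 settings.

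Of the cholesterol enzymes, Sqle came closest to the threshold. It read 21.8, 21.9, 23, 25.5 and 29.7 CPM in saline aged samples and 14.6, 17.2 and 28.04 CPM (lowest, median and highest) in HDM samples. Thus 6 of 7 HDM samples lay below all saline aged samples, and the seventh, HDM replicate 6, was among the highest. The log2 fold change of Sqle was -0.42 (SE 0.16, adjusted p = 0.0577), and -0.17 after rescaling (adjusted p = 0.328).

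Hmgcs1 read 41.2, 56.6, 56.7, 81.3 and 91.0 CPM in saline aged samples and 42.0, 47.8 and 63.2 CPM (lowest, median and highest) with HDM. The groups overlapped, and 6 of 7 HDM samples were below the saline aged median. Its log2 fold change was -0.36 (SE 0.17, adjusted p = 0.122). Idi1 read 23.3, 30.2, 31.2, 39.8 and 44.5 CPM in saline aged samples and 20.1, 24.7 and 40.3 CPM with HDM, which gave -0.38 (SE 0.18, adjusted p = 0.134). Fdft1 read 23.4, 25.4, 30.9, 33.0 and 35.2 CPM in saline aged samples and 17.5, 22.7 and 34.2 CPM with HDM, which gave -0.26 (SE 0.17, adjusted p = 0.266). The groups of Idi1 and Fdft1 overlapped too, and after rescaling the log2 fold changes of Hmgcs1, Idi1 and Fdft1 were -0.10, -0.13 and -0.017.

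Among the fatty acid genes, Srebf1 read 39.8, 45.6, 55.4, 68.2 and 71.9 CPM in saline aged samples and 27.1, 39.9 and 59.9 CPM (lowest, median and highest) in HDM samples. Its log2 fold change was -0.44 (SE 0.21, adjusted p = 0.120), and -0.19 after rescaling. Fasn read 381, 396, 419, 438 and 819 CPM in saline aged samples and 253, 427 and 519 CPM with HDM. A single saline aged sample, replicate 5, was far above the rest, and 4 of 7 HDM samples lay above the saline aged median. The log2 fold change of Fasn was -0.30, with an interval of -0.78 to 0.18 (SE 0.23, adjusted p = 0.340). Scd1 read 1451, 1560, 1587, 2141 and 2543 CPM in saline aged samples and 798, 1612 and 1812 CPM with HDM, which gave -0.36, with an interval of -0.83 to 0.11 (SE 0.23, adjusted p = 0.248). The groups of all 3 fatty acid genes overlapped, and after rescaling Fasn and Scd1 stood at -0.045 and -0.10.

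**Figure D1:**
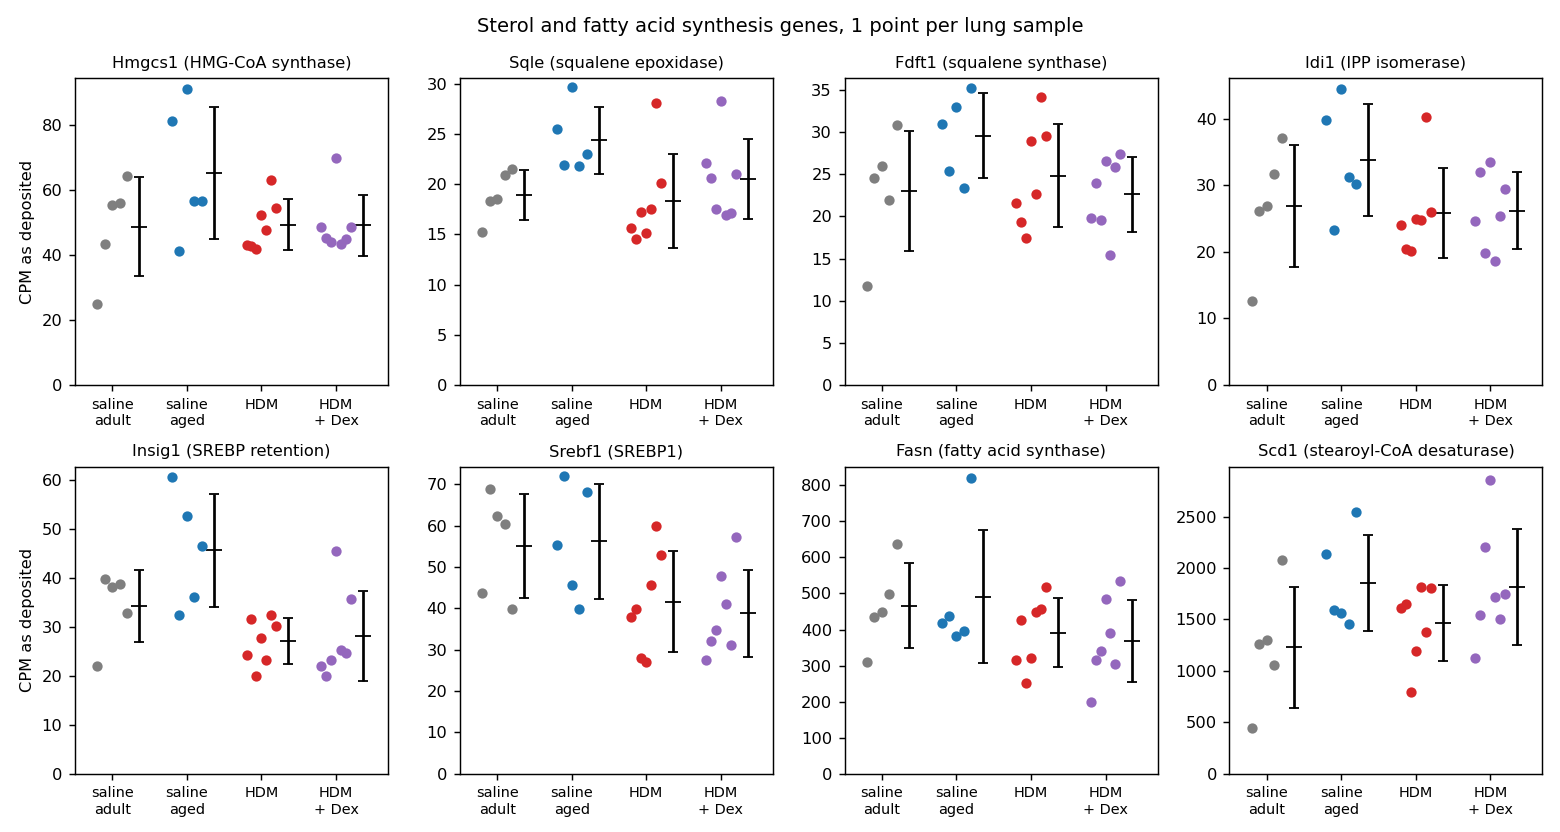
CPM as deposited of the 8 genes (vertical axis from 0) in each lung sample (points) of the 4 groups, with the mean and SD as a black bar. Insig1 is the gene whose HDM samples (20.0 to 32.4 CPM) all lie below the saline aged samples (32.4 to 60.4 CPM), and the other 7 genes overlap between these groups.

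The count in HDM vs saline depended on how samples were weighted and on single samples. With sample quality weights, Hmgcs1, Idi1, Insig1, Sqle and Srebf1 passed, all lower, while 7876 of all genes passed in place of 4482. Without saline aged replicate 2, Hmgcs1 and Insig1 passed. Without HDM replicate 6, Idi1, Insig1 and Sqle passed, and Insig1 and Sqle passed without HDM replicate 7 and without HDM + Dex replicate 4.

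The rest of the pathways was read from lists of named genes. Of 16 fatty acid synthesis genes tested in HDM vs saline, 9 were lower and none higher (median -0.45 beside -0.23 for all genes), where 21.2% of all genes passed as lower. Thrsp, a nuclear protein that goes with lipid synthesis, fell from 5.15 ± 2.26 to 1.24 ± 0.911 CPM (log2 fold change -1.51, SE 0.30, adjusted p = 0.00168). Acss2, which makes acetyl-CoA from acetate, fell from 20.9 ± 3.40 to 10.7 ± 3.12 CPM (-0.93, SE 0.21, adjusted p = 0.00313). Acacb, an acetyl-CoA carboxylase that makes malonyl-CoA, fell from 19.8 ± 3.23 to 11.3 ± 4.39 CPM (-0.81, SE 0.20, adjusted p = 0.00713). After rescaling 6 of the 16 passed, all lower, and these 3 were among them, where 2052 of 17683 genes passed as lower. Fasn and Scd1, by far the highest of the 8 genes, were not among the 9.

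Of 21 cholesterol synthesis genes tested, 2 were higher, 1 was lower and 18 did not pass, a smaller share than the 25.3% of all genes, with a median of -0.22. Mvd, which makes isopentenyl diphosphate, rose from 5.04 ± 0.804 to 8.64 ± 1.19 CPM (log2 fold change 0.68, SE 0.16, adjusted p = 0.00496). Dhcr7, which takes the last step to cholesterol in 1 branch of the pathway, rose from 5.55 ± 1.67 to 10.7 ± 3.80 CPM (0.81, SE 0.22, adjusted p = 0.00982). Ggps1, which branches off towards geranylgeranyl groups, fell from 36.1 ± 8.28 to 21.3 ± 6.00 CPM (-0.75, SE 0.22, adjusted p = 0.0149). All 3 passed again in the same direction after rescaling (0.89, 1.04 and -0.51). Of the 7 genes that control SREBPs, Insig1 alone passed.

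In the cholesterol uptake and efflux list, 2 of 13 genes passed as deposited and 4 after rescaling, all higher. Of all genes, 717 of 17744 passed as higher as deposited, and 1933 of 17683 after rescaling. Lipa, the lysosomal acid lipase, went from 41.9 ± 8.13 to 81.9 ± 34.1 CPM (log2 fold change 0.87, SE 0.22, adjusted p = 0.00776, and 1.12 after rescaling). Stard4, which carries cholesterol between membranes, went from 28.97 ± 4.73 to 39.0 ± 6.67 CPM (0.42, SE 0.14, adjusted p = 0.0324, and 0.67 after rescaling). Of 9 glyceride and lipid droplet genes, 2 were lower and none higher (1 was higher after rescaling), a count near the 21.2% of all genes that passed as lower as deposited. The 2 were Plin4, a droplet coat protein (-1.35, SE 0.30, adjusted p = 0.00315, and -1.12 after rescaling), and Lpin1, a phosphatidate phosphatase (-0.68, SE 0.19, adjusted p = 0.0131, and -0.43 after rescaling).

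**Figure D2:**
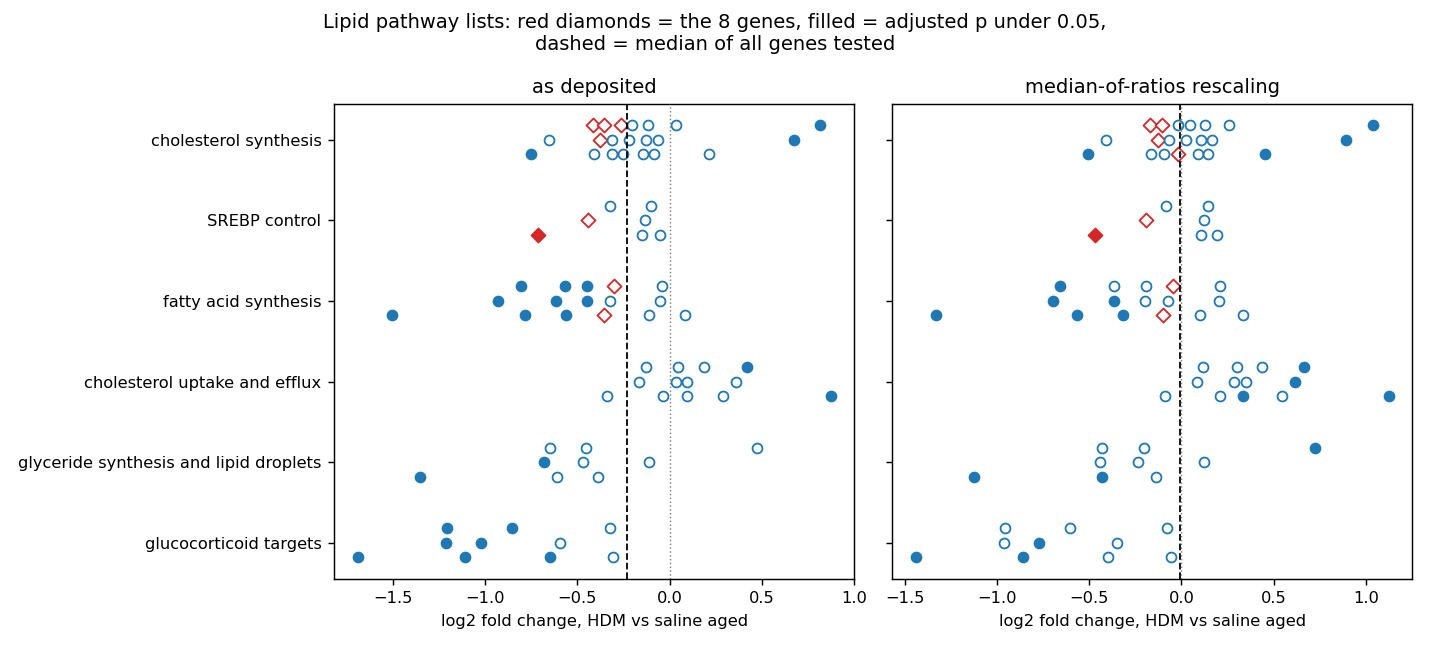
log2 fold change of HDM vs saline aged (horizontal axis) for each gene of 6 lists (vertical axis), as deposited (left) and after median-of-ratios rescaling (right), with the 8 genes as red diamonds and genes with adjusted p under 0.05 filled. Fatty acid synthesis genes lie mostly to the left (9 of 16 lower as deposited, 6 after rescaling), and Insig1 is the only filled diamond. Of all genes, 21.2% were lower as deposited and 2052 of 17683 after rescaling.

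Paralogs of Scd1, Srebf1, Insig1 and Idi1 were read beside the 8 genes. Scd2 was lower as deposited (-0.45, SE 0.16, adjusted p = 0.0397) but not after rescaling (-0.19, adjusted p = 0.437). Scd4 was lower on both scales (-0.79 as deposited and -0.66 after rescaling), from a low level of 2.05 ± 0.369 CPM. Srebf2, the gene of SREBP2, gave -0.15 (adjusted p = 0.50), or 0.10 after rescaling, and Insig2 gave -0.32 (adjusted p = 0.143), or -0.082. Scd3 and Idi2 were under 1 CPM on average and were not tested. Scd1 to Scd4 are similar in sequence and lie close together on chromosome 19, so reads shared between them could have been split by the counting.

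Markers of several cell types moved in the same comparison. Of 7 adipocyte markers tested, 4 were lower with HDM (Adipoq, Plin1, Cidec and Cfd), and the summed level of the 10 markers listed was 59.6 to 116 CPM in saline aged and 28.7 to 87.2 CPM in HDM samples. Heart muscle markers, 8 of 8 lower, summed to 588 to 1125 CPM in saline aged and 23.2 to 452 CPM in HDM samples. Club and ciliated airway cell markers were lower in 8 of 8 as well, from 5462 to 8111 CPM down to 452 to 3351 CPM. Of the alveolar macrophage markers 3 of 11 were higher (Chil3, Atp6v0d2 and Cd68), but 7 of 11 had a negative log2 fold change (median -0.13). Their sum, which the highest markers dominate, went from 266 to 366 up to 493 to 3170 CPM, while the median of the mean log2(CPM + 1) was 4.21 in saline aged and 4.29 in HDM samples. Type 2 alveolar cell markers gave 1 of 10 higher (Sftpd) and none lower, with sums of 7109 to 15076 and 5223 to 9381 CPM. Neutrophil markers were lower in 3 of 7 and B and plasma cell markers higher in 1 of 10, while none of 8 T cell and 8 dividing cell markers passed or had an unadjusted p under 0.05. After rescaling, 4 adipocyte, 8 heart muscle, 7 club and ciliated and 2 neutrophil markers were lower, and 4 macrophage, 1 type 2, 1 B and plasma cell, 1 T cell and 1 dividing cell markers were higher. Of all genes, 21.2% passed as lower and 717 of 17744 as higher as deposited. After rescaling, 2052 of 17683 passed as lower and 1933 as higher. The part of these cells in the level of Insig1 or the other genes was not tested, and in whole lung fewer cells of a type and less RNA per cell cannot be told apart.

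The second comparison asked whether Dex changed these genes in HDM-treated aged lungs, HDM + Dex vs HDM. None of the 8 passed in limma, where 0.964% of all genes passed. None of the 8 had an unadjusted p under 0.05 either, while 2389 of the 17744 genes tested did. Scd1 showed the largest difference of the 8, with 1123, 1720 and 2860 CPM (lowest, median and highest) with Dex beside 798, 1612 and 1812 CPM without it. The groups overlapped, although 2 of 7 HDM + Dex samples lay above every HDM sample, and the log2 fold change was 0.30, with an interval of -0.13 to 0.73 (adjusted p = 0.583). Intervals were -0.13 to 0.47 for Sqle, -0.35 to 0.38 for Insig1, -0.32 to 0.37 for Idi1, -0.33 to 0.31 for Hmgcs1 and -0.44 to 0.21 for Fdft1. They were -0.48 to 0.31 for Srebf1 and -0.55 to 0.32 for Fasn. Changes of either sign within these bounds could not be told from no change at this spread. Insig1 had medians of 27.7 CPM in HDM and 24.7 CPM in HDM + Dex samples, with HDM + Dex replicates 4 and 7 highest at 45.4 and 35.7 CPM.

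No gene of the cholesterol synthesis (21 tested), SREBP control (7), fatty acid synthesis (16), uptake and efflux (13) or glyceride lists (9) passed in limma. In these lists 2, 0, 2, 3 and 2 genes had an unadjusted p under 0.05, beside 2389 of all 17744 genes tested. Their medians ran from -0.15 to 0.19, beside 0.033 for all genes. Of 10 known glucocorticoid target genes none passed either, 0 had an unadjusted p under 0.05 and 2 had a positive log2 fold change. Of the cell type markers, 2 of 8 of club and ciliated airway cells were higher (3 after rescaling) and 1 of 10 of B and plasma cells was lower with Dex, and their part in the values of the 8 genes was not tested. After rescaling none of the 8 genes passed, while 507 of all genes did in place of 171.

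**Figure D3:**
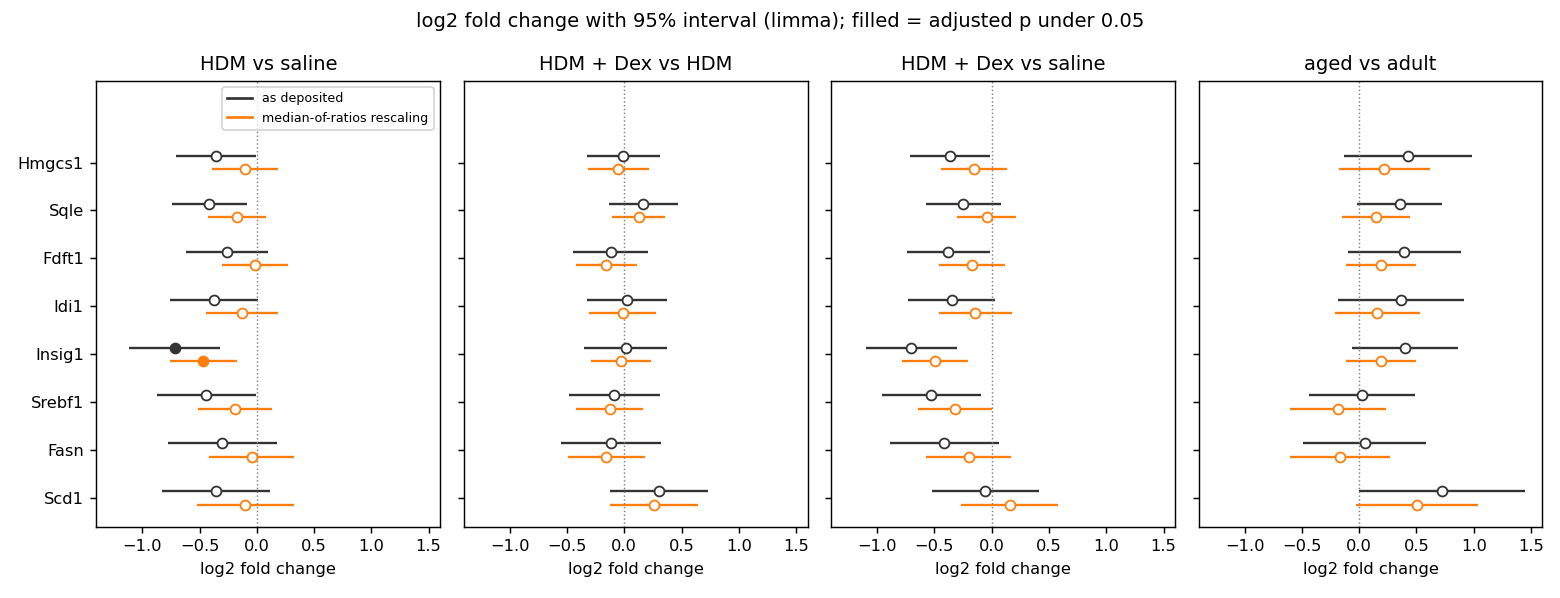
log2 fold change (horizontal axis) of the 8 genes in the 4 comparisons with 95% limma intervals, as deposited (black) and after median-of-ratios rescaling (orange), filled where adjusted p was under 0.05. Insig1 in HDM vs saline is filled on both scales (-0.72 and -0.47), and all other points are open.

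The third comparison set HDM + Dex against saline aged. It shares its samples with the 2 comparisons above, so its values stand beside theirs and are not a second measurement. None of the 8 passed, where 1.89% of all genes passed, while 4 had an unadjusted p under 0.05, as did 3766 of the 17744 genes tested, and 1 did after rescaling. All 8 log2 fold changes were negative as deposited, as were 77.6% of those of all genes, with a median of -0.37 beside -0.19. Insig1 was 20.0, 24.7 and 45.4 CPM (lowest, median and highest) with HDM + Dex, and 5 of 7 samples lay below every saline aged sample. Its log2 fold change was -0.70, with an interval of -1.10 to -0.30 (SE 0.19, adjusted p = 0.0579), and -0.49 after rescaling (adjusted p = 0.0850). Insig1 passed with sex as a covariate (adjusted p = 0.0155), with sample quality weights, with a replicate block, and without saline aged replicate 2, HDM replicate 3, HDM + Dex replicate 4 or HDM + Dex replicate 7.

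Srebf1 was 27.6, 34.7 and 57.2 CPM with HDM + Dex, a log2 fold change from saline aged of -0.53 (SE 0.21, adjusted p = 0.167). Fdft1 was 15.4, 24.0 and 27.4 CPM (-0.38, SE 0.17, adjusted p = 0.217) and Hmgcs1 was 43.5, 45.2 and 70.0 CPM (-0.36, SE 0.17, adjusted p = 0.221). Fasn was 200, 341 and 535 CPM, Idi1 18.6, 25.4 and 33.5 CPM, and Sqle 16.9, 20.7 and 28.3 CPM. All of these groups overlapped with saline aged. Scd1 was the only 1 of the 8 whose sign changed with rescaling, from -0.055 to 0.16 (adjusted p = 0.900 and 0.741). With sample quality weights, Fdft1, Hmgcs1, Idi1, Insig1, Sqle and Srebf1 passed as lower, while 5471 of all genes passed in place of 335. In the lists, Elovl5, a fatty acid elongase, was lower (108 ± 11.1 in saline aged and 74.5 ± 11.0 CPM in HDM + Dex, -0.54, SE 0.14, adjusted p = 0.0454) and was the only lipid gene to pass, but did not pass after rescaling (adjusted p = 0.0918). Of 10 glucocorticoid targets, 7 passed as lower as deposited and 3 after rescaling, where 256 of 17744 and 81 of 17683 genes did. The counts in HDM vs saline, which shares the saline aged samples, were 7 and 3 as well, where 3765 and 2052 genes did. The median of the list in HDM vs saline was -0.94 as deposited, beside -0.23 for all genes. In HDM + Dex vs saline, Errfi1 (-1.49, and -1.28 after rescaling) and Tsc22d3 (-1.26 and -1.04) passed on both scales. Zbtb16 (-1.57) passed only as deposited (adjusted p = 0.0836 after rescaling).

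The fourth comparison asked what age did without HDM, saline aged vs saline adult. Xist was above Ddx3y in 5 of 5 adult and 2 of 5 aged samples, so age and sex were partly confounded. None of the 8 passed in limma, where 0.654% of all genes passed. None of the 8 had an unadjusted p under 0.05 either, while 1993 of the 17744 genes tested did. All 8 were higher in aged samples by the sign of the log2 fold change as deposited (median 0.38 beside 0.19 for all genes). After rescaling 6 of 8 were higher, and Srebf1 (-0.19) and Fasn (-0.17) turned negative. Among all genes tested, only 20.99% of the log2 fold changes were negative as deposited, and 49.31% were negative after rescaling. The 8 positive signs as deposited thus went with a shift of most genes. Scd1 read 442, 1058, 1261, 1302 and 2077 CPM in adult samples, and all 5 aged samples lay above the adult median. Its log2 fold change was 0.72, with an interval of -0.0035 to 1.45 (SE 0.34, adjusted p = 0.447), and 0.51 after rescaling. Over the other settings the log2 fold change of Scd1 ran from 0.21 to 0.72. The highest adjusted limma p among them was 0.803, with rescaling and a sex covariate. Sqle read 15.3, 18.3, 18.5, 20.9 and 21.5 CPM in adult samples, all below the 5 aged samples, a separation that 2.91% of all genes showed (0.35, adjusted p = 0.463). After rescaling the groups of Sqle overlapped.

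In the 6 pathway lists no gene passed for age. In each list 0 to 2 genes had an unadjusted p under 0.05, beside 1993 of all 17744 genes tested. The lowest adult value of Hmgcs1 (24.9 CPM), Sqle, Fdft1 (11.8 CPM), Idi1 (12.6 CPM), Insig1 (21.96 CPM), Fasn (310 CPM) and Scd1 was in every case replicate 1, which had the highest 7SL share of all libraries, 42.0%. The highest adult value of Fasn (637 CPM) and Scd1 was in replicate 5, whose adipocyte markers summed to 342 CPM, where the adult median was 78.7 CPM. Srebf1, in contrast, was lowest in that replicate, at 39.7 CPM. Of the cell type markers, 6 of 7 of neutrophils (5 after rescaling) and 4 of 10 of B and plasma cells were higher in aged samples. The part of adipocytes and of these cells in the values was not tested.

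Variation between samples of 1 group was used to see which of the genes went together. Each group mean was removed from log2(CPM + 1), and Pearson's r and Spearman's rho over 24 samples were tested with 100000 permutations within groups, adjusted over 52 relations. As deposited, 18 of 28 pairs of the 8 genes had an adjusted p under 0.05, all positive, among them 10 of 10 pairs of the sterol genes (Hmgcs1, Sqle, Fdft1, Idi1 and Insig1), with r from 0.56 to 0.89. After rescaling, 3 pairs had an adjusted p under 0.05.

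Hmgcs1 and Idi1 stayed together on both scales. As deposited, r was 0.893 (permutation p = 1e-05, the smallest these permutations can give, adjusted p = 0.00013) and rho was 0.897 (p = 1e-05). After rescaling, r was 0.781 (permutation p = 0.00013, adjusted p = 0.00364) and rho 0.820 (p = 6e-05), and r was 0.748 without the 2 samples farthest from the median. Within samples under and over a 7SL share of 25%, the rescaled r was 0.850 (n = 14) and 0.571 (n = 10). The other rescaled pairs that passed were Fdft1 with Idi1 (r = 0.685, permutation p = 0.00123, adjusted p = 0.0160, rho = 0.663, p = 0.00171) and Fasn with Scd1 (r = 0.590, permutation p = 0.00297, adjusted p = 0.0257). For Fasn with Scd1, rho was 0.550 (permutation p = 0.00902) and missed the threshold (adjusted p = 0.0670). No pair of a sterol gene with a fatty acid gene passed after rescaling, and Hmgcs1 with Srebf1 was the most negative (r = -0.612, permutation p = 0.0101, adjusted p = 0.0747, rho = -0.552, p = 0.0144).

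Fasn and Scd1 varied with the type 2 alveolar cell markers. The marker score was the mean log2(CPM + 1) of the 10 markers. As deposited, r with this score was 0.870 for Fasn (permutation p = 1e-05, rho = 0.857, p = 1e-05), 0.807 for Scd1 (p = 9e-05, rho = 0.749, p = 0.00027) and 0.707 for Srebf1 (p = 5e-05, rho = 0.753, p = 2e-05). The relation was not particular to the fatty acid genes on this scale. By r, 7 of the 8 genes passed, with Insig1 at 0.75 and Fdft1 at 0.667. After rescaling, r was 0.729 for Fasn (permutation p = 0.00177, adjusted p = 0.0184) and 0.652 for Scd1 (p = 0.00051, adjusted p = 0.00884). Spearman's rho was then 0.584 and 0.583, with an adjusted permutation p of 0.0512 for each, just over the threshold. No other gene of the 8 passed by r after rescaling, with Srebf1 at 0.374 (adjusted permutation p = 0.313) and Insig1 at 0.341 (adjusted permutation p = 0.556). The rescaled r of Fasn was 0.494 without the 2 samples farthest from the median, and 0.690 and 0.775 in samples under and over a 7SL share of 25%.

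With the adipocyte score, Fasn gave r = 0.646 as deposited (permutation p = 0.00042, adjusted p = 0.00182, rho = 0.650, p = 0.00099) and r = 0.666 after rescaling (p = 0.00014, adjusted p = 0.00364, rho = 0.751, p = 7e-05). By r, it was the only 1 of the 8 genes to pass for this score on either scale. The alveolar macrophage score passed for 7 of 8 genes as deposited (r from 0.47 to 0.68 over the 8) and for none after rescaling (r from -0.14 to 0.29). The cell type scores and the genes come from the same libraries, so these relations share depth and scaling.

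**Figure D4:**
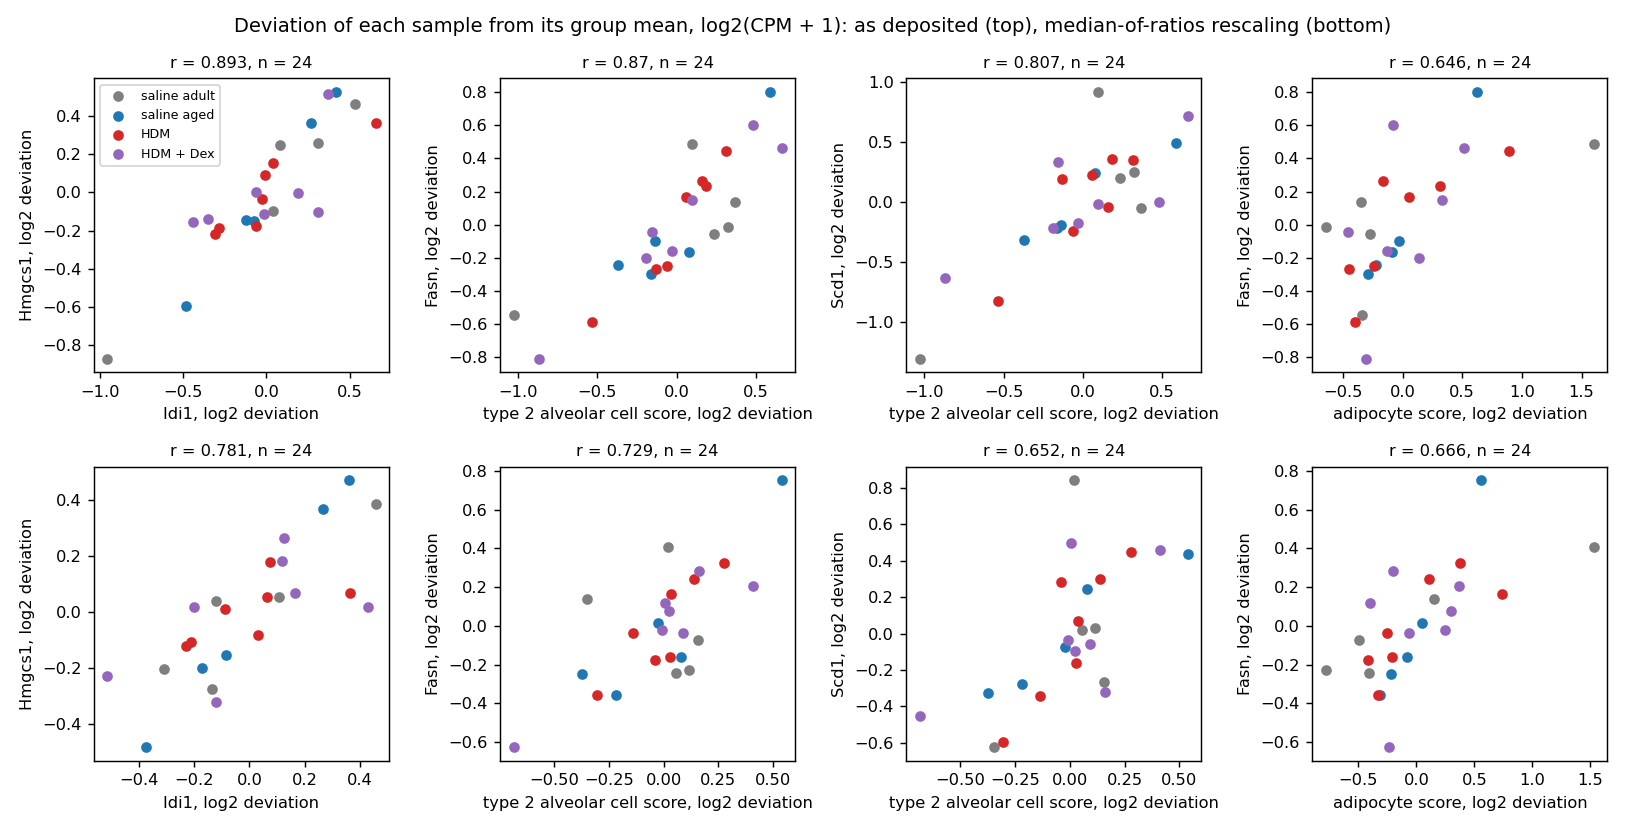
Deviation of each sample from its group mean on the log2(CPM + 1) scale, as deposited (top row) and after median-of-ratios rescaling (bottom row), for Hmgcs1 against Idi1, Fasn and Scd1 against the type 2 alveolar cell score, and Fasn against the adipocyte score, with groups in colour. The points rise together in all 8 panels, with r from 0.646 to 0.893 in the top row and 0.652 to 0.781 in the bottom row.

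Of the 17736 other genes tested, those most like the sterol genes within groups, by mean r over 24 samples as deposited, were Zfp994 (0.83), Eif1ax (0.83), Gspt1 (0.82), Scoc (0.82) and Gm13835 (0.82). After rescaling they were Scoc (0.57), Cyp51 (0.56), Ndufc1 (0.56), Nsdhl (0.55) and Gm28437 (0.54), of which Cyp51 and Nsdhl are themselves cholesterol synthesis enzymes. Those most like Srebf1, Fasn and Scd1 as deposited were Sftpb (0.80), Cdcp1 (0.80), Ehf (0.79), Adgrg1 (0.79) and Apbb1 (0.78). After rescaling they were Adgrg1 (0.62), Gm28053 (0.62), Laptm4b (0.61), Cdcp1 (0.61) and Sftpb (0.59). Sftpb, which encodes surfactant protein B, is 1 of the type 2 alveolar cell markers of the score. These likenesses are a description, and they share library depth and scaling.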

How the data were processed

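Lung RNA was sequenced as stranded, paired-end mRNA libraries, and the study names a Picard, STAR and limma pipeline. The submitters' processing notes also name FastQC, DESeq2 and the build mm9. The deposited table holds CPM per gene, which the authors scaled so that all columns have the same sum. A constant of 0.0001 was added to every value after the scaling. Starts of all 8 genes in the table equal those of GENCODE M21, so coordinates are given in GRCm38. Depth was estimated from the spacing of low CPM values. Only 81.1% to 85.9% of low values were whole multiples of 1 read (within 0.05), so reads were not recovered and no count test was run. Another deposited text file, which holds no measurements, was not used.

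The filter kept genes whose mean over 24 samples reached 1 CPM. These were tested with limma 3.58.1 in R 4.3.3 on log2(CPM + 1), with a trended variance and Benjamini-Hochberg adjustment over 17744 genes at 0.05. A joint fit of the 19 aged samples gave the HDM and Dex comparisons, and a fit of the 10 saline samples gave that of age. Fold changes on this scale understate those of low genes. Relations used Python 3.11.15 with scipy 1.17.1. The limma step was checked on simulated data. All 8 genes were named, and of each list up to 3 called genes with the largest change. The genes and lists were chosen with earlier results of these data known. Alternatives were pseudocounts, filters, normalizations, weights, covariates, a replicate block and leaving out each sample. Those on the 7SL share, the combined settings and the relations between the 8 genes were added after seeing the data.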

Additional observations from a re-analysis of the deposited data

Results flagged for a closer look

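By Dixon's criterion on CPM, 4 of 32 sets of samples (each gene in each group) had a highest or lowest value set apart from the rest, where chance gives about 1 in 20. The sets share libraries, and Sqle and Idi1 were set apart in the same sample. They are not independent, so 4 of 32 cannot be read as an excess over that rate. Fasn in saline aged replicate 5 was 819 CPM, and the other 4 samples were 381 to 438 CPM. Hmgcs1 in HDM + Dex replicate 4 was 70.0 CPM, and the others were 43.5 to 48.6 CPM. Sqle and Idi1 in HDM replicate 6 were 28.04 and 40.3 CPM, and the others were 14.6 to 20.1 and 20.1 to 25.9 CPM. Those 2 challenged samples had 7SL shares of 11.3% and 15.4%, among the lowest of their groups. After median-of-ratios rescaling, Fasn in saline aged replicate 5 was still apart (690 beside 320 to 415 CPM), while Hmgcs1 (59.3 beside 39.2 to 56.0), Sqle (23.7 beside 16.1 to 21.1) and Idi1 (34.1 beside 22.3 to 27.7 CPM) lay nearer to the rest. Their causes were not tested.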

How the results depend on the processing

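Of the 8 genes, 1 passed in HDM vs saline and none in the other comparisons. In HDM vs saline the number that passed was 5 with sample quality weights, 3 with a replicate block, and 0 at a threshold of 0.01, with the 7SL share as a covariate, in samples with a 7SL share under 25% and with rescaling and a replicate block. It was 1 to 3 when a sample was left out. In HDM + Dex vs saline it was 6 with sample quality weights, 1 with a replicate block, 1 with a sex covariate and 0 to 1 when a sample was left out. Under every setting run, the number was 0 for age and 0 for HDM + Dex vs HDM. Sample numbers 1 to 7 are shared between groups without a stated pairing. At most 2 of the same-numbered pairs of any 2 groups deviated together (r over 0.1), with r up to 0.407 for HDM with HDM + Dex. The numbers were therefore not treated as pairs in the main fit, but low r cannot show that the samples were unpaired. Over all genes, HDM vs saline gave 4482 (717 higher, 3765 lower), but 3985 after rescaling (1933 higher, 2052 lower), 7876 with sample quality weights, 1921 at a threshold of 0.01, 1571 with the 7SL covariate, 1072 under a 25% 7SL share and 2954 (without saline aged replicate 3) to 5338 when a sample was left out. HDM + Dex vs HDM gave 171, but 507 after rescaling, 8 with a replicate block, 293 with a sex covariate, 83 without a filter, 316 with all 24 samples in 1 fit, 2 to 544 when a sample was left out, and from 1 with only these 2 groups to 611 with sample quality weights under all settings. HDM + Dex vs saline gave 335 (79 higher, 256 lower), but 170 after rescaling (89 higher, 81 lower), 898 with a replicate block, 1929 with a sex covariate, 213 without a filter, 190 with all 24 samples in 1 fit, 519 with only these 2 groups, 66 to 772 when a sample was left out, and from 28 under a 25% 7SL share to 5471 with sample quality weights under all settings. Aged vs adult gave 116 (105 higher, 11 lower), but 182 after rescaling (102 higher, 80 lower), 784 with sample quality weights (478 higher, 306 lower), 67 with a filter at 5 CPM, 65 with all 24 samples in 1 fit, 52 at a threshold of 0.01, and 74 and 77 without saline adult replicates 2 and 3.

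Signs of log2 fold changes turned only for genes that passed neither as reported nor under the alternative, some of them near 0 and some not, such as Srebf1 in HDM vs saline (-0.44 as reported). The values below are those after the turn. With rescaling, Idi1 (-0.015) and Insig1 (-0.028) in HDM + Dex vs HDM, Scd1 (0.16) in HDM + Dex vs saline, and Srebf1 (-0.19) and Fasn (-0.17) in aged vs adult turned. The same values were -0.024, -0.037, 0.13, -0.13 and -0.11 without the 7SL RNA genes, -0.019, -0.042, 0.19, -0.57 and -0.47 with rescaling and a sex covariate, and -0.015, -0.028, 0.22, -0.19 and -0.17 with rescaling and a replicate block. A sex covariate gave -0.049 for Idi1 and -0.071 for Insig1 in HDM + Dex vs HDM, and -0.33 for Srebf1 and -0.22 for Fasn in aged vs adult. Quality weights gave -0.096 for Insig1, and -0.21 for Srebf1 and -0.086 for Fasn by age. Quantile normalization gave 0.18 for Scd1 in HDM + Dex vs saline, and -0.16 for Srebf1 and -0.11 for Fasn by age. With the 7SL covariate, HDM vs saline gave Fdft1 0.048, Srebf1 0.064, Fasn 0.28 and Scd1 0.040, HDM + Dex vs HDM gave Idi1 -0.047 and Insig1 -0.092, HDM + Dex vs saline gave Fasn 0.041 and Scd1 0.26, and age gave Idi1 -0.042, Srebf1 -0.050 and Fasn -0.16. Under a 25% 7SL share, HDM vs saline gave Fdft1 0.12, Srebf1 0.038 and Fasn 0.054, HDM + Dex vs HDM gave Sqle -0.13 and Idi1 -0.28, HDM + Dex vs saline gave Scd1 0.18, and age gave Srebf1 -0.048 and Fasn -0.089. Leaving out a sample gave, in HDM + Dex vs HDM, -0.095 to 0.052 for Hmgcs1, -0.036 to 0.14 for Idi1, -0.11 to 0.083 for Insig1, -0.19 to 0.0073 for Srebf1 and -0.22 to 0.021 for Fasn. It gave -0.17 to 0.067 for Scd1 in HDM + Dex vs saline, and -0.082 to 0.14 for Srebf1 and -0.15 to 0.17 for Fasn by age. With rescaling and without saline adult replicate 1, Srebf1 gave -0.090 and Fasn -0.13 by age.

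Of 24 relations with cell type scores, 15 passed as deposited and 3 after rescaling, and of 28 pairs of genes 18 and 3. With rescaling, r was -0.085 for Hmgcs1, -0.42 for Sqle and -0.045 for Idi1 with the type 2 score, -0.14 for Sqle and -0.017 for Srebf1 with the macrophage score, -0.0097 for Insig1 and -0.022 for Srebf1 with the adipocyte score, and, between genes, -0.61 for Hmgcs1 with Srebf1, -0.47 for Idi1 with Srebf1, -0.24 for Hmgcs1 with Fasn, -0.23 for Sqle with Scd1, -0.21 for Fdft1 with Srebf1, -0.21 for Sqle with Fasn, -0.19 for Idi1 with Fasn and -0.043 for Sqle with Srebf1. The cause of these changes was not tested. A scaling that differs between libraries limits how small a change of the 8 genes can be read.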
